A study of Mus musculus with 6 samples.

Results

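Focal adhesions are the plaques through which a cell holds on to the extracellular matrix. Integrins, each a pair of an alpha and a beta chain, bind the matrix outside the cell, and talin, vinculin, zyxin and their partners tie the integrin tails to actin inside it. Focal adhesion kinase, encoded by Ptk2, and the Src kinase sit in the same plaque and phosphorylate paxillin, p130Cas and related scaffolds, which recruit adaptors that pass the signal on. Src was first understood through such substrates, cortactin, p120-catenin and caveolin-1 among them, and its control of them acts on the proteins, which an mRNA measurement does not see.

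The members were 33 genes of this apparatus, chosen by name, of which 25 could be tied to a probe through the RefSeq transcript accession that the array files give. These 25 genes had 27 probes and stand among 13971 named genes. The other 8, Itga1, Crk, Crkl, Shc1, Actn1, Flna, Parva and Tns1, had no probe matched this way and were not analysed here. mRNA levels were compared between 3 wild-type livers (replicates 1, 2 and 4) and 3 livers with a Src transgene (replicates 1, 3 and 4), on 1-colour oligonucleotide arrays with 1 array for each liver. All mice were C57BL/6 and 14 months of age. The transgene is human c-Src under a mouse metallothionein promoter, which responds to zinc, and the labels do not say whether these animals were given zinc. Per the study's design text, zinc was mostly not needed, and 1 wild-type and 1 transgenic array were left out by the authors for weak signal. The study asked which genes downstream of Src might take part in the liver tumours of this line, and the labels give neither the sex of the mice nor whether the tissue held tumour. The transgenic samples are numbered as mice and the wild-type ones as controls. Where they were not separate animals, p-values measure only the spread between samples. In whole liver, fewer cells of a type and less RNA per cell cannot be told apart.

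The tissue matched its label, since all 6 hepatocyte markers tested, Alb and Ttr among them, were above background on every array. The median deposited signal was 53.8 to 93.4 on wild-type and 94.8 to 117 on transgenic arrays, so signals were brought to a common distribution before any comparison. All levels below are log2 values after that step unless a signal is named as deposited, and a level is compared only with the same probe's level on another array. The Src probe was higher on every transgenic array, at 9.67, 8.48 and 7.71 against 6.65, 7.21 and 6.62, a log2 difference of 1.79 ± 0.51 (SE, n = 3 each; limma adjusted p = 0.69). The labels do not say whether this mouse probe also reads the human transcript. Transgenic replicate 4 lacked signal above background for Eif2s3y, Uty and Ddx3y, genes of the Y chromosome that all other arrays detected, while Kdm5d read 9.03 there and 8.32 to 8.74 elsewhere. Every member was therefore also computed without that array.

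None of the 25 members passed the test. With limma's test adjusted over 34175 features, 0 of 25 members were higher or lower in transgenic livers, and over all features the share called was 0%. No member reached an unadjusted p under 0.05 either (0 of 25), where 7.09% of all features did. The smallest adjusted p among the members was 0.69, for Bcar1. The log2 change was positive for 10 members and negative for 15, and its median was -0.084, against 51.7% positive and a median of 0.016 over all features. Among the 20 members above background on at least 1 array, 7 were positive. Every 95% interval of a member's difference included 0. For 14 members the interval lay within 1 on the log2 scale in both directions. These 14 include Itga5 and Itgav, which were not above background on any array, so their intervals bound no measured change. For the other 11 this number of arrays leaves a change of that size unresolved.

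**Figure D1:**
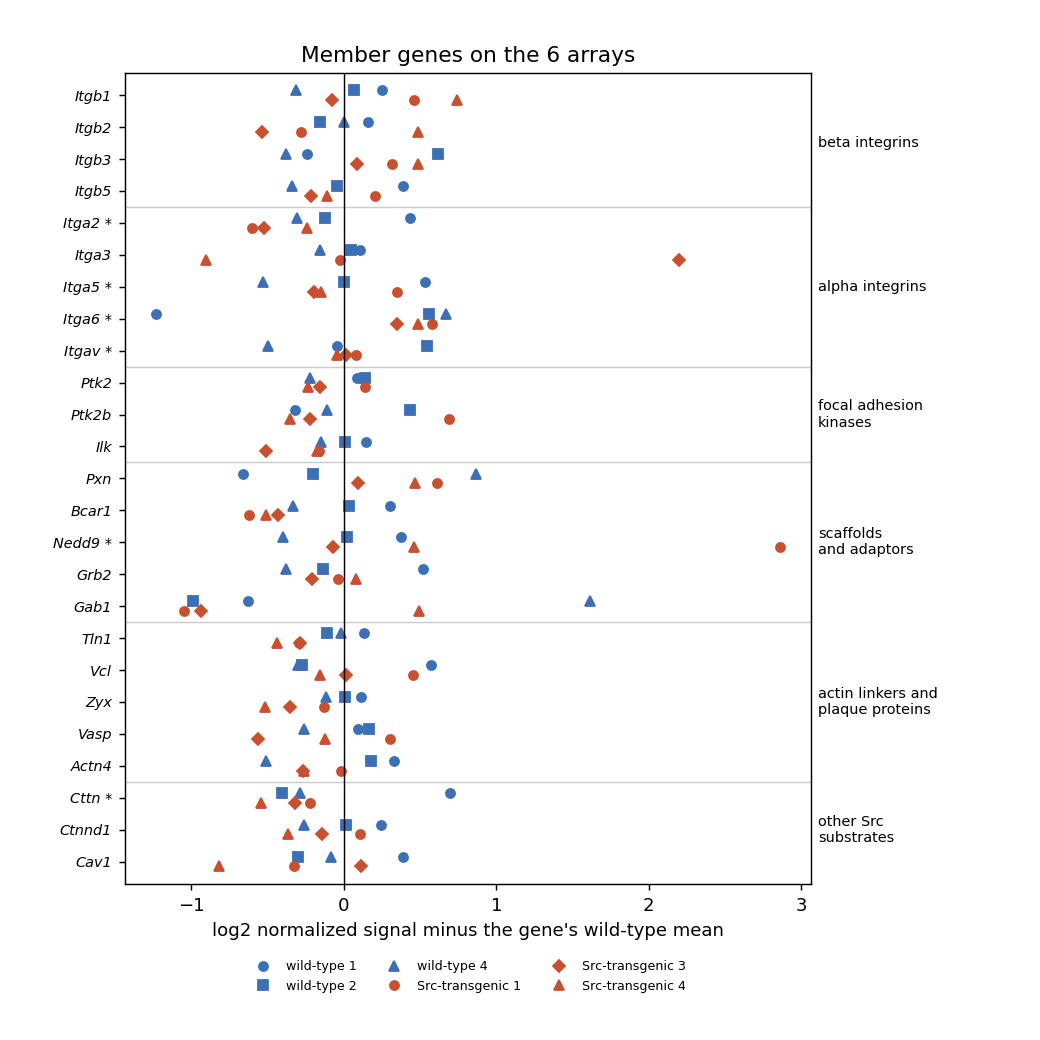
Each row is a member gene and each point an array, with the log2 normalized signal minus the gene's wild-type mean on the horizontal axis; blue marks wild-type, red Src-transgenic, the marker shape gives the replicate number, and an asterisk marks a gene not above background on all 6 arrays. Red and blue points overlap for 21 of the 25 genes, and the 3 points farthest above 0 are Nedd9 on transgenic replicate 1, Itga3 on transgenic replicate 3 and Gab1 on wild-type replicate 4.

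The beta integrin chains gave small differences with overlapping groups. Itgb1, the common partner of most alpha chains, read 8.02, 7.84 and 7.46 in wild-type livers and 8.24, 7.69 and 8.52 in transgenic livers. That was a log2 difference of 0.38 ± 0.29 (SE; 95% interval -0.33 to 1.08), with transgenic replicate 3 inside the wild-type range. It was 0.61 without that array and 0.19 without transgenic replicate 4. Itgb5, a partner of the alpha V chain in vitronectin binding, read 8.79, 8.36 and 8.06 against 8.61, 8.19 and 8.29, a difference of -0.041 ± 0.26. The values of the groups lay on top of each other, and the wild-type arrays spread more widely than the transgenic ones.

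Itgb3, the chain of the platelet fibrinogen receptor and of the vitronectin receptor, read 6.53, 7.39 and 6.39 against 7.08, 6.85 and 7.25, a difference of 0.30 ± 0.32. The wild-type replicate 2 value was the highest of all 6. Without wild-type replicate 4 the difference was 0.10, and without wild-type replicate 2 it was 0.61. All 4 platelet markers had positive differences. Of these Ppbp and Gp1bb had groups apart, where 10.1% of all features were apart and higher. Their summed signal was 177 to 203 in wild-type and 205 to 320 in transgenic livers, with Gp1bb not above background on any array. Their part in the Itgb3 value was not tested. Itgb2, the beta chain of leukocyte integrins, read 6.30, 5.99 and 6.14 against 5.86, 5.61 and 6.63, a difference of -0.11 ± 0.31, and transgenic livers held its lowest and its highest value. The highest, on replicate 4, stood on the array where the 3 Kupffer cell and macrophage markers tested had a summed signal of 3155, against 1310 to 1798 on the other arrays. The 9 lymphocyte and granulocyte markers summed to 1392 to 1636 in wild-type and 1519 to 2126 in transgenic livers, none of them below background on all arrays. The 2126, on transgenic replicate 3, rested on Cd79a, at 10.47 there against 8.94 to 9.28 elsewhere, with its probe in a patch. Of the 9 differences 4 were positive and 5 negative. Cd3g at -0.74 and Nkg7 at -0.56 had groups apart and lower, where 5.9% of all features were, and Cd79a had groups apart and higher. What these cells contribute to the Itgb2 value was not tested.

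Most alpha chains lay at the limit of the assay. Itga2, Itga5, Itga6 and Itgav, which form collagen, fibronectin, laminin and vitronectin receptors with their beta partners, were not above background on any array, as was cortactin's gene Cttn. The deposited signals of these 5 genes were 5.24 to 32.3, and the background threshold was 33.0 to 50.6. No fold is given for them, and a log2 value at this level is no measured change. Itga3, a laminin receptor chain, was above background on all arrays at 7.11, 7.05 and 6.85 in wild-type and 6.98, 9.20 and 6.10 in transgenic livers. The difference of 0.42 ± 0.76 rested on transgenic replicate 3, where the probe lay in a patch of unusual brightness, and without that array it was -0.46. The 4 cholangiocyte markers also had their highest summed signal there, 485 against 246 to 341 elsewhere. That sum rested on Krt7, at 8.57 there against 6.61 to 7.31 elsewhere, with its probe also in a patch on that array. Epcam at 5.67 and Cldn7 at 5.25 had their lowest values there, and Krt19 was not above background there. The part of these markers in the Itga3 value was not tested.

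The kinases of the plaque showed no separation beyond that of Ilk. Ptk2, focal adhesion kinase itself, read 8.52, 8.57 and 8.21 against 8.57, 8.27 and 8.19, a difference of -0.084 ± 0.21 with a 95% interval of -0.60 to 0.43. The values of the groups overlapped, with an SD of 0.20 in each, and the difference was -0.0088 without transgenic replicate 4 and -0.20 without transgenic replicate 1. Ptk2b, the calcium-responsive relative Pyk2, had 2 probes. The probe with the higher signal read 11.785, 12.54 and 11.995 against 12.794, 11.884 and 11.754, a difference of 0.038 ± 0.36 that turned to -0.26 under median scaling, and the other gave -0.22 ± 0.30. The probes disagreed in sign, and neither difference exceeded its error.

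Ilk encodes integrin-linked kinase, a pseudokinase that joins beta integrin tails to the parvins. It read 9.07, 8.93 and 8.77 in wild-type and 8.76, 8.41 and 8.75 in transgenic livers, 1.22-fold lower at a log2 difference of -0.28 ± 0.20 (limma adjusted p = 0.73). Its groups did not overlap, but the gap between wild-type replicate 4 and transgenic replicate 1 was the difference between 8.77 and 8.76. After each spot was corrected for the deviation of its neighbours the difference was -0.054, and without transgenic replicate 3 it was -0.17.

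Bcar1 and Nedd9 encode p130Cas and HEF1, scaffolds of the same family whose tyrosines Src and focal adhesion kinase phosphorylate, and their log2 differences had opposite signs, neither past the test. Bcar1 read 7.04, 6.78 and 6.41 in wild-type and 6.12, 6.31 and 6.23 in transgenic livers, so that every transgenic value lay below every wild-type value. It had the smallest p of the members, at -0.52 ± 0.23 or 1.44-fold lower, and did not pass (limma adjusted p = 0.69; exact two-sided permutation p = 0.1, which 3 arrays in each group cannot go below). The difference was -0.38 to -0.69 when single arrays were left out and -0.32 after local correction.

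Nedd9, described in full because 1 value stood out after the data were seen, read 6.08, 5.72 and 5.30 in wild-type and 8.56, 5.63 and 6.16 in transgenic livers. Its deposited signal was 406 on transgenic replicate 1 and 41.1 to 93.4 on the other 5 arrays, and no patch was found at its spot. It was above background on 2 of 3 wild-type and all 3 transgenic arrays. The log2 difference of 1.08 ± 0.76 went to 1.66 without transgenic replicate 3 and to 0.19 without transgenic replicate 1. That array also had the highest Src level, 9.67. Transgenic replicate 3, with Src at 8.48, had the lowest transgenic Nedd9 value, and a relation to the Src level was not tested. With an interval of -0.77 to 2.94 Nedd9 was the least bounded member on the upper side.

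Pxn, the gene of paxillin, had 2 probes that agreed in sign. The one with the higher signal read 10.01, 10.47 and 11.54 in wild-type and 11.29, 10.77 and 11.14 in transgenic livers, a difference of 0.39 ± 0.42, and the other, in a patch on 1 array, gave 0.20 ± 0.28. Wild-type replicate 4 was the highest of the 6 arrays and lay apart from the other wild-type livers, so the difference was 0.82 without it and 0.059 without wild-type replicate 1. The adaptors downstream did not separate. Grb2, which links phosphotyrosines to the Ras exchange factor Sos, differed by -0.055 ± 0.28. Gab1, a docking protein for the phosphatase Shp2 and for PI3-kinase, differed by -0.50 ± 0.78. Gab1 read 9.72 on wild-type replicate 4, in a patch, and 7.06 to 8.60 on the other arrays, and without that array its difference was 0.31.

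**Figure D2:**
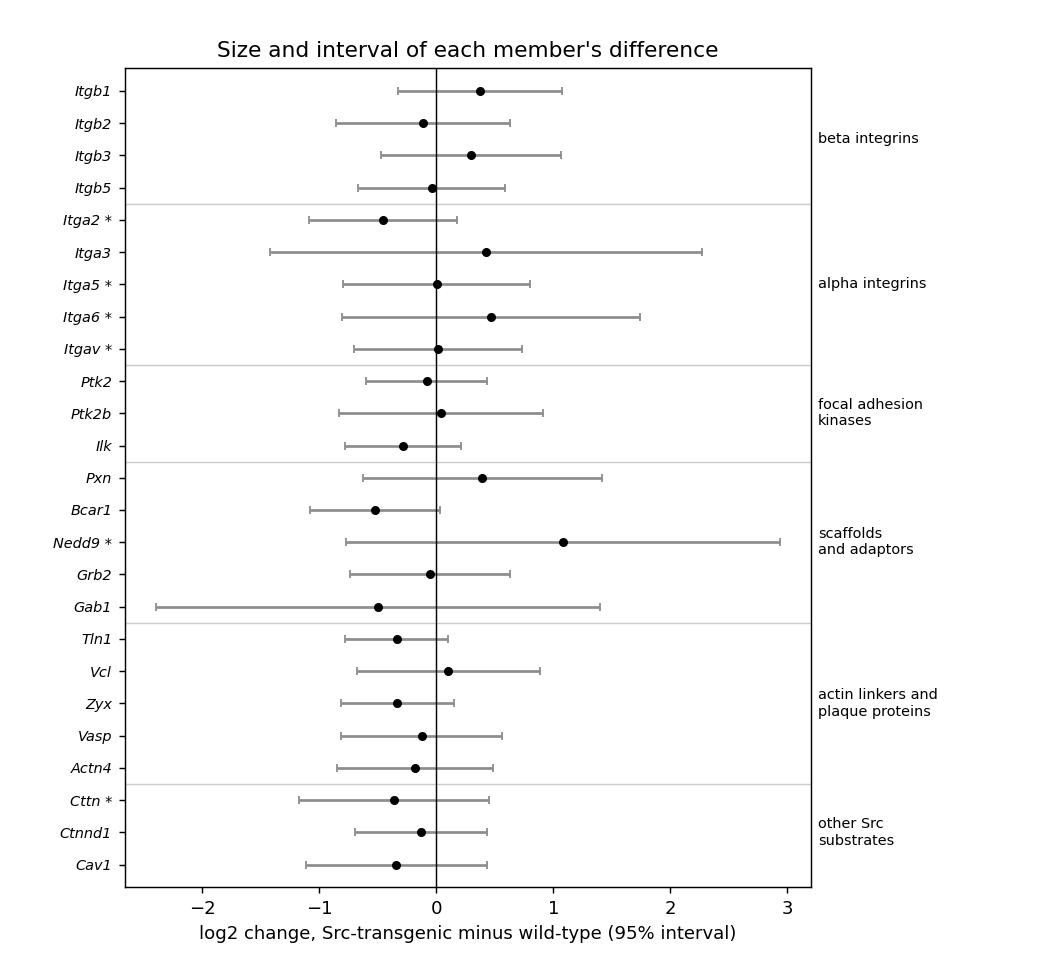
The log2 change of each member, Src-transgenic minus wild-type, is drawn as a point with its 95% interval from the moderated fit over 6 arrays; an asterisk marks a gene not above background on all 6. All 25 intervals cross 0, the narrowest belongs to Tln1 (-0.78 to 0.10) and the widest to Gab1 (-2.40 to 1.40).

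Among the actin-linking proteins 4 of 5 differences were negative, none past the test, and the class median was -0.18. Tln1 encodes talin, which binds integrin tails and switches integrins on. It read 9.04, 8.80 and 8.89 in wild-type and 8.62, 8.63 and 8.47 in transgenic livers, 1.27-fold lower at -0.34 ± 0.18 (limma adjusted p = 0.70). The transgenic values lay below all wild-type values, and the within-group SD pooled over both groups, 0.11, was the smallest of any member. Zyx, for zyxin, which marks mature adhesions and brings in actin assembly factors, read 8.48, 8.37 and 8.25 against 8.24, 8.01 and 7.85, 1.26-fold lower at -0.33 ± 0.20 (limma adjusted p = 0.71). The values did not overlap, although transgenic replicate 1 and wild-type replicate 4 were nearly level.

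Vcl, for vinculin, which reinforces the talin link under tension, gave 0.10 ± 0.32, and -0.29 after local correction, with its probe in a patch on transgenic replicate 3. Vasp, an actin elongation factor that zyxin recruits, gave -0.13 ± 0.28, and Actn4, the non-muscle crosslinker alpha-actinin-4, -0.18 ± 0.27, which was -0.015 without wild-type replicate 1 and -0.44 without wild-type replicate 4. Their groups overlapped. The 2 remaining Src substrates with a measurable level had intervals that include 0. Ctnnd1, for the cadherin-binding p120-catenin, read 8.88, 8.66 and 8.38 against 8.75, 8.50 and 8.28, a difference of -0.13 ± 0.23, which was -0.012 without wild-type replicate 1 and -0.26 without wild-type replicate 4. Cav1, for the coat protein of caveolae, gave -0.34 ± 0.32, with its probe in a patch on transgenic replicate 3 and -0.73 after local correction. Without transgenic replicate 4 it was -0.11 and without transgenic replicate 3 -0.57. Of 7 endothelial markers, from cells rich in caveolae, 6 had negative differences and 1 a positive one, where 51.7% of all features were positive. They summed to 3556 to 4739 in wild-type and 3170 to 4237 in transgenic livers. The 4739, on wild-type replicate 2, included Lyve1 at 9.57, in a patch there, against 6.30 to 8.40 elsewhere. It also included Cdh5 at 8.29, against 3.84 to 4.99 elsewhere. The part of these markers in the Cav1 value was not tested.

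Altogether 4 of the 25 members, Ilk, Bcar1, Tln1 and Zyx, had groups that did not overlap, which is the share found over all features (16%). All 4 were lower in transgenic livers, where 5.9% of all features were, and 0 were higher, where 10.1% of all features were. The order depended on the scaling between arrays. In deposited signal the same 4 genes overlapped between the groups, for instance Bcar1 at 79.4, 95.5 and 89.6 against 74.7, 99.0 and 98.3, and each of the 4 had the higher mean in transgenic livers. On that unscaled signal 10 members lay apart with transgenic livers higher, against 36.9% of all features, and 0 lay apart with transgenic livers lower, against 0.881%. The 4 genes stayed apart under median and 75th percentile scaling as well. After local correction none of the 4 did, and Cav1 was the 1 member with groups apart.

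**Figure D3:**
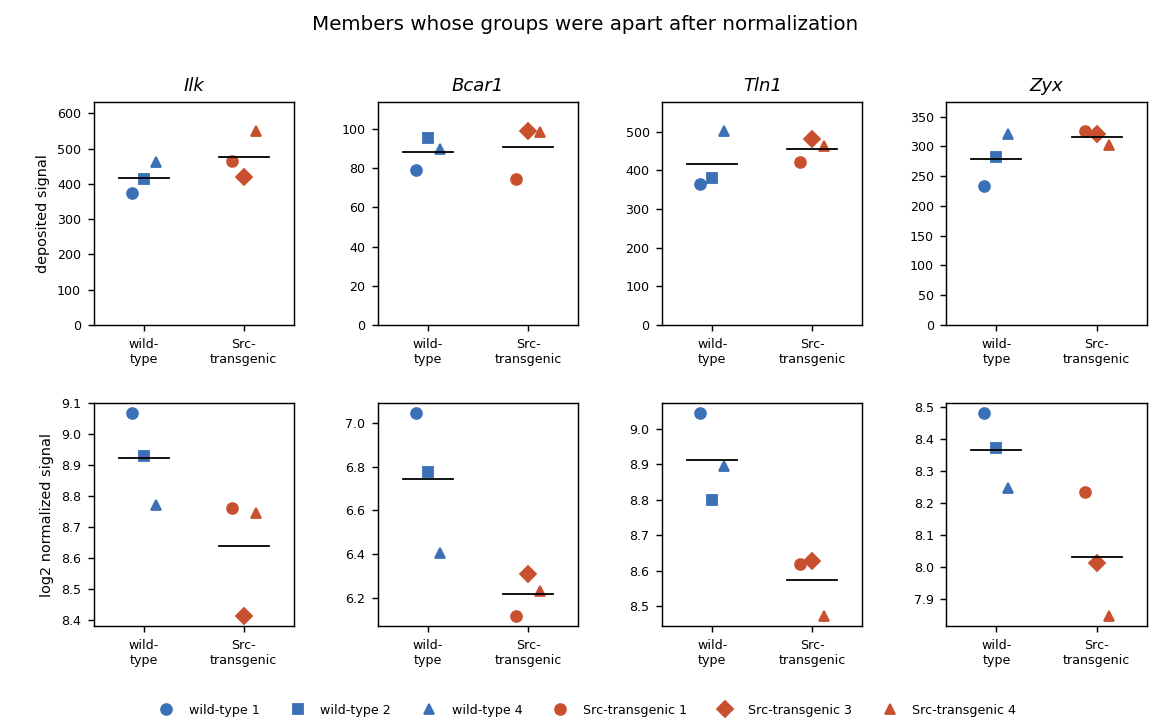
For Ilk, Bcar1, Tln1 and Zyx the upper panels give the deposited signal on a linear axis from 0 and the lower panels the log2 normalized signal on an axis that does not start at 0, with 1 point per array and a bar at each group mean. The groups overlap in the upper panels, where the transgenic mean is the higher, and are apart in the lower panels, where it is the lower.

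The median within-group SD of the members was 0.37, against 0.36 over all features. Wild-type replicate 1 held the highest value of the 6 for 13 of 25 members, and for 25.9% of all features. Wild-type replicate 4 held the lowest for 9 members and transgenic replicate 4 for 8, against 21.0% and 19.4% of all features. Taken over the 25 members, the median deviation from the wild-type mean was 0.16, 0.0080 and -0.26 for wild-type replicates 1, 2 and 4. It was 0.077, -0.21 and -0.16 for transgenic replicates 1, 3 and 4, so each transgenic array fell within the wild-type range.

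Promoter sequences from RefSeq (GRCm38.p6) were found for 18 of the 25 genes, at 25 start sites. They are shown for Tln1 and Zyx, the members with groups apart that have a single listed start, and for Vcl, a classical target of the serum response factor that did not separate. Each is the 250 bases before the gene start, 5′ to 3′ on the gene's strand. Capitals mark matches on either strand to GGGCGG, the GC box, and to the CArG box that serum response factor binds. TATAAA was searched as well and is absent from these 3.
Tln1, chr4:43562584-43562833, minus strand: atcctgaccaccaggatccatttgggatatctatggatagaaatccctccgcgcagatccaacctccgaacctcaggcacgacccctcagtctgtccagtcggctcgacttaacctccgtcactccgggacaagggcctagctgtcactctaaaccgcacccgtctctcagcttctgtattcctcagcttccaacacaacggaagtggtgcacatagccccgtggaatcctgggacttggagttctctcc
Zyx, chr6:42349578-42349827, plus strand: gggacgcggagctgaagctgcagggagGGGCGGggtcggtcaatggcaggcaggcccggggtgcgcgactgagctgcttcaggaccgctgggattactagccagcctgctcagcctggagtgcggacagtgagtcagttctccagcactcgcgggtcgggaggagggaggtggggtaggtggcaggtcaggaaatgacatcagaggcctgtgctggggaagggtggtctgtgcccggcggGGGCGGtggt
Vcl, chr14:20929148-20929397, plus strand: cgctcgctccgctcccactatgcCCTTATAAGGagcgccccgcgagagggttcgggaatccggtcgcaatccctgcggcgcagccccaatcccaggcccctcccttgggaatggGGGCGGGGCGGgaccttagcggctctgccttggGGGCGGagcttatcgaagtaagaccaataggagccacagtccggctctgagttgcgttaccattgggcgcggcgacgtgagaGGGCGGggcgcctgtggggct
Zyx held 2 GC boxes, Vcl 4 of which 1 pair overlaps, and Tln1 none. The single CArG box of Vcl begins 227 bases before the start and was the only one in the 25 member promoters, where 1.25% of the 13944 promoters of genes on the array hold one. GC boxes were in 15 of the 25 member promoters, or 60%, against 47.8% of promoters of genes on the array, and TATAAA in 4, or 16%, against 10.3%. These are shares of start sites, not of genes, and the 2 windows of Gab1 overlap and hold the same 2 GC boxes. Bcar1 and Ilk each have 2 listed starts, with 3 and 2 GC boxes for Bcar1 and 0 and 3 for Ilk. These matches describe letters in a window and were not tested against the expression values.

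Beyond the members, 5 lists of the same pathway held 124 genes, of which 96 had a probe. Of these 96, 0 passed limma's adjusted test. An unadjusted p under 0.05 was reached by 4 with positive and 3 with negative values, against 4.37% and 2.72% of all features, and 18 had groups apart, 11 of them higher and 7 lower, where 16% of all features did (10.1% higher and 5.9% lower). The median log2 change was -0.11. Among 25 matrix ligands 10 were positive, where 51.7% of all features were, and none reached that unadjusted threshold. Those with the smallest p were the fibrillar collagen gene Col3a1 at -0.55 ± 0.29 and the microfibrillar collagen gene Col6a1 at -0.44 ± 0.25. Of the 7 stellate and mural cell markers, from cells that make collagen, 6 had negative differences and 1 a positive one. They summed to 2970 to 3769 in wild-type and 2623 to 3830 in transgenic livers. The 3769, on wild-type replicate 4, included Rgs5 at 10.27 there against 6.15 to 6.70 elsewhere. The part of these markers in the collagen values was not tested. The fibronectin gene Fn1 and the vitronectin gene Vtn, named after their values were seen because their groups were apart, gave 0.31 ± 0.19 and 0.18 ± 0.18.

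Other integrins had positive values in 9 of 12 genes, 3 of them at an unadjusted p under 0.05, against 51.7% positive and 4.37% higher at that threshold over all features. Itga11, a collagen receptor chain of mesenchymal cells, differed by 0.65 ± 0.19 (limma adjusted p = 0.69), with deposited signals of 43.1 to 73.5 in wild-type and 124 to 168 in transgenic livers. Its groups were apart after scaling, where 10.1% of all features were apart and higher, and in deposited signal, where 36.9% were. Transgenic arrays were brighter as a whole, so the deposited signal is no separate check of a higher value. Itgb4, the laminin-binding chain of hemidesmosomes, was above background on all 3 transgenic arrays and on no wild-type one, at least 1.14-fold higher, which compares group means after the wild-type values are raised to the lowest signal above background. The third was Itgad, 1 of the 6 genes among the 12 that were not above background on any array. Of these 6, Itgae, Itgam, Itga2b and Itgb6 also had positive values. A log2 value at this level is no measured change.

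Other plaque proteins had 14 negative and 5 positive values among 19 genes, where 51.7% of all features were positive. Lpxn and Evl, both negative, were not above background on any array. Pdlim7, an adaptor of actin bundles, was above background on wild-type replicate 4 alone, at a deposited signal of 388 against 3.29 to 20.5 on the other 5 arrays. It was at least 1.60-fold lower in transgenic livers, a bound that rests on that 1 array, since without it no array was above background. Fermt2, for kindlin-2, which activates integrins together with talin, gave -0.59 ± 0.30, and -0.30 without wild-type replicate 1. Of 20 signalling genes 12 were negative and 8 positive, and none reached the unadjusted threshold. Rhoa, the small GTPase of stress fibres, gave -0.41 ± 0.23 with its probe in patches on 2 arrays and turned to 0.44 after local correction. With its 2 probes averaged it was -0.18, and without transgenic replicate 3 it was -0.23. Sos1, the Ras exchange factor that Grb2 carries, gave -0.49 ± 0.32, -0.25 without transgenic replicate 4 and -0.77 without transgenic replicate 1.

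Among 20 further Src substrates the smallest p belonged to Cdh1, the gene of E-cadherin, the adhesion protein of hepatocyte borders that p120-catenin stabilises. Its deposited signal was 185, 222 and 198 in wild-type and 79.7, 157 and 77.5 in transgenic livers, lower on every transgenic array although those arrays were brighter as a whole. Of all features 0.881% were apart and lower in deposited signal, and 5.9% were after scaling. The log2 difference of Cdh1 after scaling was -1.56 ± 0.34, or 2.95-fold lower, and it did not pass (limma adjusted p = 0.69). Its probe lay in a patch on transgenic replicate 3, the difference was -1.33 to -1.87 when single arrays were left out and -1.82 after local correction. Gab2, a docking protein like Gab1, differed by 0.96 ± 0.36. Its groups were apart after scaling, where 10.1% of all features were apart and higher, and in deposited signal, where 36.9% were. Since transgenic arrays were brighter as a whole, the deposited signal is no separate check of a higher value.

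**Figure D4:**
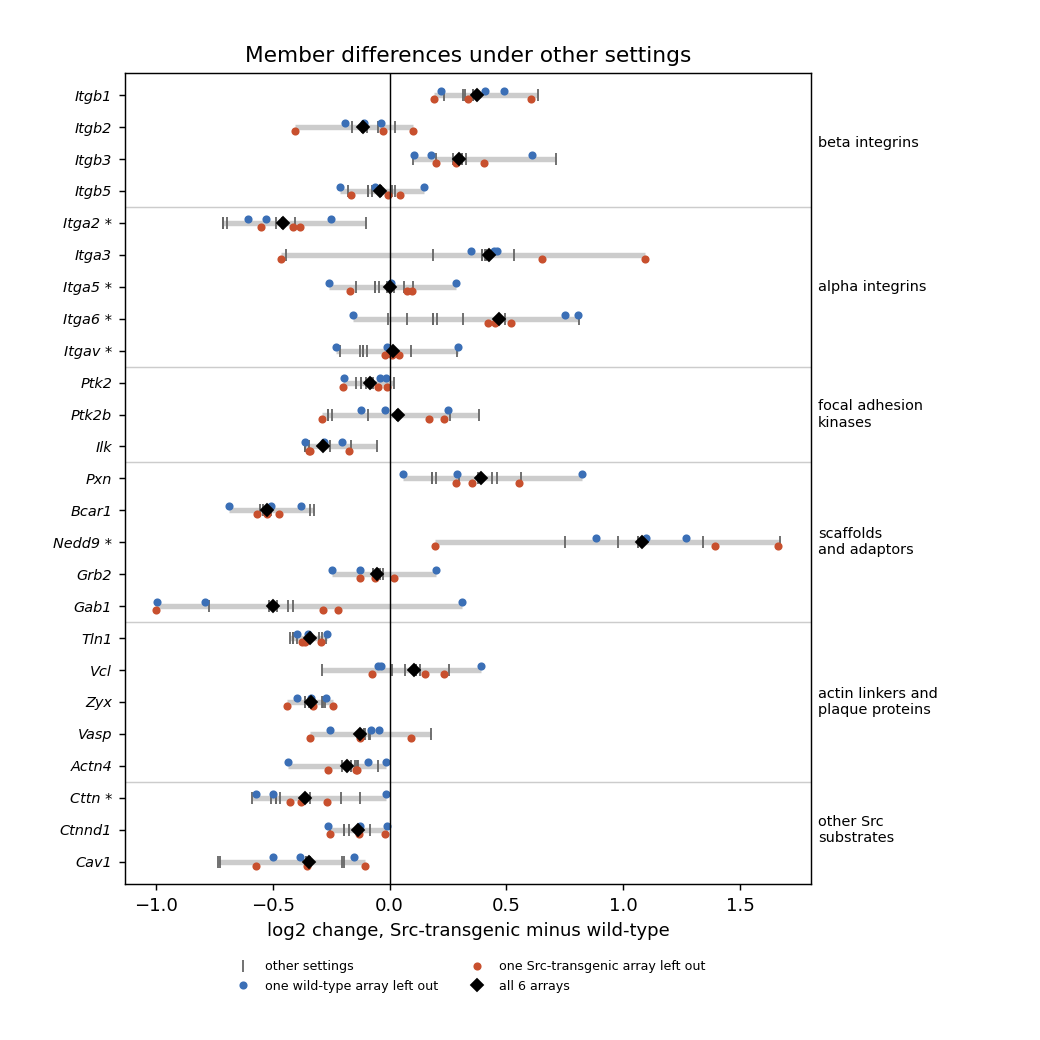
The log2 change of each member with all 6 arrays (black diamonds), with 1 array left out (blue for a wild-type, red for a Src-transgenic array) and under the other settings (ticks); the grey bar spans the alternatives and an asterisk marks a gene not above background on all 6 arrays. Bars of 9 members stay below 0, those of 4 stay above it and those of 12 cross it. Tln1, Zyx and Bcar1 are among the 9, as are Itga2 and Cttn, which were not above background on any array.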

How the data were processed

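Per the file headers, each spot has a deposited intensity already corrected for background. A second intensity column divides it by 1 constant per array, near the array's median, and equals the authors' value table. Image software is not given in the sources used here. Of 35587 spots per array, 620 with repeated identifiers were taken as controls and left out, leaving 34967 mouse probes. Values under the 1st percentile of positive signals (4.72 to 5.75) were raised to it, log2 transformed and quantile normalized.

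Accessions without versions were matched to RefSeq (GRCm38.p6), naming 14763 probes to 13971 genes. The probe with the highest mean stood for a gene, and with 20204 unnamed probes this gave 34175 features. A probe was above background past a threshold set from 570 dim control spots: their median, to which 3 scaled median absolute deviations were added, a rule set after the data were seen. A patch is where the median deviation of spots within 4 rows and columns exceeded 0.5. Local correction subtracts that deviation. The comparison used limma 3.58.1 (R 4.3.3; two-sided, Benjamini-Hochberg), tested on simulated data. Figures used matplotlib 3.10.9.

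The members and lists were chosen with earlier results of these data known. Members with groups apart, and the one with the highest signal in each role class, are given for every array, and the 2 genes with the smallest p in each pathway list are named. The number of arrays limits precision.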

Additional observations from a re-analysis of the deposited data

How the results depend on the processing

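Over 19 alternatives, 0 members and 0 pathway genes were called under any of them, and the smallest adjusted p of a member was 0.48, for Tln1 with a floor at 16. Of the 25 members, 13 kept their direction throughout and 12 turned in at least 1 alternative. The replicate number was not treated as a pairing, since the numbers 1 and 4 are shared but deviations correlated at 0.06 for each. The replicate block takes the difference from the arrays numbered 1 and 4 alone, since the numbers 2 and 3 each occur in only 1 group. In that fit 1 member (Nedd9) reached an unadjusted p under 0.05, where 3.94% of all features did. Itga3 turned to -0.44, Itgb2 to 0.024, Itgb5 to 0.023, Ptk2 to 0.021 and Vasp to 0.18, and no adjusted call changed. Ptk2 turned in no other alternative. The count of members at that unadjusted threshold was 2 with an offset of 50 and with the floor at 16 (Bcar1 and Tln1). Of all features 6.74% and 8.98% reached it. The count was 1 when dim probes were dropped (Bcar1), with array weights (Bcar1) and with local correction of patches (Cav1). The shares of the features in these fits were 8.17%, 8.15% and 7.62%. Leaving out single arrays gave 0 to 2, against 4.92% to 8.44% of all features. The 2 (Pxn and Bcar1) were without wild-type replicate 4, where the share was 8.44%. The count with groups apart was 1 with local correction, where 17.7% of all features were apart. It was 4 to 7 with single arrays left out, where 23.8% to 31.3% were, the 7 without wild-type replicate 4 and without transgenic replicate 3. Apart from the repeated normalization, removing an array cannot make groups that were apart overlap, so the lower end of this range is no check of the 4. Positive members numbered 6 of 19 once dim probes were dropped and 6 to 13 with single arrays left out, the 6 without transgenic replicate 1. Median scaling turned Itga5 to -0.064, Itgav to -0.12 and Ptk2b to -0.26, 75th percentile scaling to -0.046, -0.097 and -0.25, and the authors' table to -0.064, -0.12 and -0.26. The offset turned Itga5 to -0.0088 and Itgav to -0.0093, the floor Itga6 to -0.0072, array weights Itgav to -0.12 and Itgb5 to 0.0087, and the mean of probes Ptk2b to -0.092. Local correction turned Itga5 to -0.14, Itgav to -0.21, Vcl to -0.29 and Rhoa to 0.44. Itga5, Itga6 and Itgav were never above background, so their values are no measured change. With single arrays left out, Gab1 ran from -0.999 to 0.31, Grb2 from -0.24 to 0.20, Itga3 from -0.46 to 1.09, Itga5 from -0.26 to 0.28, Itga6 from -0.16 to 0.81, Itgav from -0.23 to 0.29, Itgb2 from -0.40 to 0.10, Itgb5 from -0.21 to 0.15, Ptk2b from -0.29 to 0.25, Vasp from -0.34 to 0.093 and Vcl from -0.073 to 0.39. The causes were not tested. Over all features limma called 1 without wild-type replicate 1 and 1 without transgenic replicate 4, no member or pathway gene in either case. Median scaling moved the median of all features from 0.016 to -0.078, the higher share of features at an unadjusted p under 0.05 from 61.6% to 41.8%, and positive members from 10 to 7. With the floor at 16 Itga2 lay at the floor on all arrays and had no value. Dim probes limit 5 members and patches 4.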
